A study of Mus musculus with 7 samples.

Results

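The genes described here are 10 components of the Notch pathway: the receptors Notch1, Notch2, Notch3 and Notch4, the ligands Jag1, Jag2, Dll1 and Dll4, and the target genes Hes1 and Hey1. They were chosen by name, and all 10 were found among the 27179 genes of the deposited count table through their Entrez gene identifiers. The reads come from ChIP-seq, that is sequencing of immunoprecipitated chromatin, with an antibody to the V5 tag, on first and second pharyngeal arches of C57BL/6 embryos at E10.5. The V5 group held 3 ChIP libraries from embryos whose Moz (Kat6a) gene carries a Flag-V5-BIO tag at the end of the protein, and such mice are viable and fertile when homozygous. The wild-type group held 3 ChIP libraries made with the same antibody from arches without any V5 epitope, and is the negative control. A single input library was chromatin of tagged arches without immunoprecipitation. Nothing in the labels says that replicates were separate cultures, animals or pools, and the spread behind each p-value may therefore be technical.

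Notch signalling passes between touching cells. A ligand of the Jagged or Delta-like family binds a Notch receptor, the receptor is cut by ADAM proteases and then by gamma-secretase, and its intracellular domain enters the nucleus, where it joins the DNA-binding protein RBPJ and a Mastermind co-activator and switches on Hes and Hey genes. The HES and HEY proteins are repressors. In the head, JAG1 and NOTCH2 take part in craniofacial and arterial development, and DLL4 and NOTCH4 are best known from endothelial cells. MOZ, also named KAT6A, acetylates lysines of histones.

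The values are read counts over each gene, not peaks, and they show DNA recovered from a locus and not RNA. Totals were 806648 to 3286602 counts in the V5 libraries, 1288732 to 2504595 counts in wild type, and the input had 3488745. By chi-square per degree of freedom over all genes, V5 replicate 3 differed from the wild-type libraries by 4.03 to 5.45 and from V5 replicates 1 and 2 by 9.45 and 9.62. V5 replicates 1 and 2 differed from each other by 10.2, and the wild-type libraries among themselves by 4.93 to 5.46. V5 replicate 1 differed from the wild-type libraries by 7.77 to 9.79, and V5 replicate 2 by 8.24 to 9.75. By this measure, which also depends on depth, V5 replicate 3 lay nearer to wild type than to its own group. V5 replicates 1 and 2 were likewise nearest to a wild-type library, so no V5 library was nearest to its own group. The plot of left-out libraries gives each gene without each of them. Levels are given as CPM, the reads of a gene per 1e6 reads counted in that library. By counting error alone, taking 3 counts as the limit, 0 reads allowed a level of up to 3.72 CPM in the shallowest V5 library and up to 2.33 CPM in the shallowest wild-type library. Because gene-body reads are not a measure of transcription, the tissue label could not be checked from marker genes. Per kb of gene, reads over 8 arch mesenchyme markers were 0.93 to 1.13 CPM in V5 libraries, 0.78 to 1.11 CPM in wild-type libraries and 0.74 CPM in the input. The same measure over 6 endothelial markers was 0.90 to 1.04 CPM in V5 libraries, 0.76 to 0.86 CPM in wild-type libraries and 0.86 CPM in the input. For 4 blood markers, 1 of them at 0 throughout, it was 0.88 to 1.11, 0.80 to 1.01 and 0.72, and for 5 neuronal markers 0.62 to 0.96, 0.83 to 1.05 and 0.77, in V5, wild type and input. The part of these differences in the results below was not tested.

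The deposited gene length lay within 0.5% of the whole RefSeq span, introns included, for 8 of the 10 genes, so sequence before the gene start was mostly not counted. Coordinates are RefSeq's for GRCm38.p6 (mm10). Notch1 lies on chromosome 2 from 26457902 to 26503822, Notch2 on chromosome 3 from 98013538 to 98150367, Notch3 on chromosome 17 from 32120820 to 32166896 and Notch4 on chromosome 17 from 34564286 to 34588543. Jag1 lies on chromosome 2 from 137081451 to 137116520, Jag2 on chromosome 12 from 112907803 to 112929812, Dll1 on chromosome 17 from 15367354 to 15376932 and Dll4 on chromosome 2 from 119325784 to 119335666. Hes1, at 2440 bp the shortest of them, lies on chromosome 16 from 30065357 to 30067796, and Hey1, at 3680 bp, on chromosome 3 from 8663359 to 8667038. Annotated long non-coding RNAs cover 29.98% of the Notch3 span, where it is not stated whether reads were counted.

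RefSeq promoter sequences were found for 8 of the 10 genes, 9 promoters in all, since Dll1 has a pair of starts. Hes1 and Hey1 had no entry. The 250 bases before each start had a median of 17 CpG dinucleotides and 65.6% G and C, against 6 CpG and 52.4% over all 32851 promoters of the table. Counts ran from 4 CpG at Notch4 to 54 at Jag2. The core of the RBPJ binding sequence, TGGGAA on either strand, was in 0 of the 9 windows, and 21.6% of all promoters hold it in the same window. The E-box CACGTG was likewise in 0 of 9, against 6.02% of all promoters. The N-box CACNAG, a sequence bound by HES proteins, was in the windows of Notch1, Notch2, Notch3 and Dll4, or 44.4% of the 9, against 36.7% of all promoters. Such matches describe these letters in this window and say nothing about binding. The following windows lie directly before the gene start of Notch2 and Jag1, the members with a higher CPM in every ChIP library than in the input, and of Dll4, whose CPM was lower in every one. They are written 5′ to 3′ on the strand of the gene with CpG dinucleotides in capitals, 34 at Notch2, 20 at Jag1 and 14 at Dll4.
Notch2, chr3:98013288-98013537, plus strand: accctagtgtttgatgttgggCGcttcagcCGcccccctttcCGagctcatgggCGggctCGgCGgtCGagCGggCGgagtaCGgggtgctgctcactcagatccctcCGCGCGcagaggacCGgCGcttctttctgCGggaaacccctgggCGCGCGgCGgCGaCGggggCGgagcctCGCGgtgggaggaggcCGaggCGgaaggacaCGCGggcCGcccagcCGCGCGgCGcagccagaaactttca
Jag1, chr2:137116521-137116770, minus strand: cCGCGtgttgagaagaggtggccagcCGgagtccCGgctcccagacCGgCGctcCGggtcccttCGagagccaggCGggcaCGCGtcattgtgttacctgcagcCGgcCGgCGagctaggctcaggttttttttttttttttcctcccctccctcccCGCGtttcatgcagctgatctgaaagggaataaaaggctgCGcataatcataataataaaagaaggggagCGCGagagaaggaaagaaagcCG
Dll4, chr2:119325534-119325783, plus strand: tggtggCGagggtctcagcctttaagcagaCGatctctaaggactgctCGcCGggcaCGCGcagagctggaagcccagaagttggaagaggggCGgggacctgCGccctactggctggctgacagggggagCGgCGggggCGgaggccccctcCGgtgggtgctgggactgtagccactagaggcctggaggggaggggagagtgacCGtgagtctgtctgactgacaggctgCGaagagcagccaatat

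The first comparison asks whether tagged MOZ gave more reads over the Notch genes than the same antibody gave in wild-type arches. No receptor, ligand or target gene passed, and Hes1 was the only one of the 10 whose V5 libraries all lay above its wild-type libraries. V5 and wild type were compared with edgeR's quasi-likelihood test over 14575 genes with enough counts, with Benjamini-Hochberg adjustment and a threshold of 0.05. Of the 10 genes 7 had enough counts, and 0 of these were called higher and 0 lower, as was 0% of all genes tested. At an unadjusted p under 0.05 there were also 0 of the 7, against 4.12% of all genes, and DESeq2 called 0 of the 10. V5 over wild type, the log2 fold change was positive in 6 of the 7, with a median of 0.21. Over all tested genes the median was 0.02 and 52.0% were positive. Without V5 replicate 1, 5 of the 8 members with enough counts were positive, with a median of 0.18. Without V5 replicate 2, 4 of 7 were positive, with a median of 0.21. Without V5 replicate 3, 8 of the 10 had enough counts, 0 were called and the median was 0.45, against 0.04 over all genes. The added gene was Hes1, at 4.38, which passed the filter there only through its V5 counts. That median therefore covers another set of genes than the 7 of the fit with all libraries. Summed over the 10 genes, the V5 libraries held 360, 389 and 270 CPM for replicates 1 to 3, and the wild-type libraries 239, 290 and 240 CPM. The V5 mean was 340 ± 61.7 CPM and the wild-type mean 256 ± 29.2 CPM (SD, n = 3 each), and V5 replicate 3 lay inside the wild-type range.

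**Figure D1:**
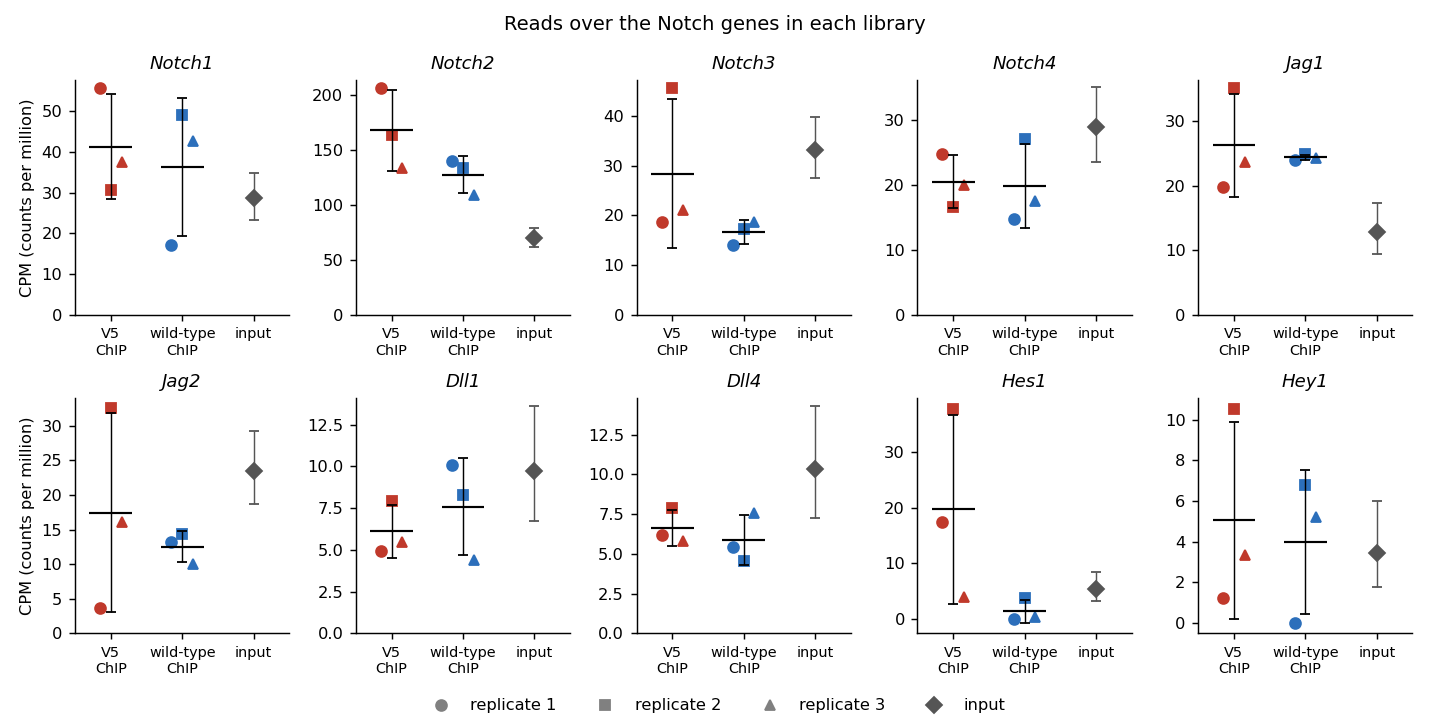
Counts per 1e6 counts of the library (CPM, vertical axes, each starting near 0) over each Notch gene in the 3 V5 ChIP, 3 wild-type ChIP and 1 input libraries. Symbols mark replicates, lines the mean, black bars the SD, and the grey bar the 95% exact binomial interval of the input, so that Hes1 is seen with 17.4, 37.8 and 3.96 CPM in V5 above 0 to 3.77 CPM in wild type.

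Hes1, the bHLH repressor that is the classic Notch target, had 14, 43 and 13 reads in V5 replicates 1 to 3. It had 0, 5 and 1 reads in wild-type replicates 1 to 3 and 19 reads in the input. The levels were 17.4, 37.8 and 3.96 CPM in V5 libraries, 0, 3.77 and 0.399 CPM in wild-type libraries and 5.45 CPM in the input. V5 replicates 1 and 2 were high, while V5 replicate 3, the deepest ChIP library, stood just above wild-type replicate 2. Their exact binomial 95% intervals, 2.11 to 6.76 CPM for that V5 library and 1.22 to 8.79 CPM for that wild-type library, overlapped. The V5 mean was 19.7 ± 17.03 CPM and the wild-type mean 1.39 ± 2.07 CPM (SD, n = 3 each), a log2 ratio of 3.60 with a prior count of 0.5. The two-sided exact permutation p was 0.1, the smallest that 3 against 3 libraries allow. Among genes with at least 70 counts in all, 4.82% had every V5 library above every wild-type library, and 5.07% had every V5 library below. Hes1 met that minimum only through its 70 counts in V5. Without wild-type replicate 2 the log2 ratio was 5.46, without V5 replicate 2 it was 2.73, and without V5 replicate 3 it was 4.08. Hes1 had too few counts for the filter of the gene-level test. Without that filter its log2 fold change was 3.86 (SE 1.03, with an edgeR adjusted p = 0.158), and with DESeq2 it was 3.96 (SE 1.10, adjusted p = 0.596). The input stood above every wild-type library and also above V5 replicate 3.

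Hey1, a related repressor that acts in arteries and somites, had 1, 12 and 11 reads in V5, against 0, 9 and 13 reads in wild type, with 12 in the input. The groups overlapped, at 1.24, 10.5 and 3.35 CPM in V5 against 0, 6.78 and 5.19 CPM in wild type. The log2 ratio of 0.32 (exact permutation p = 0.9) turned to -0.74 without V5 replicate 2 and to -0.24 without wild-type replicate 1. Hey1 and Hes1 were both lowest in wild-type replicate 1 and highest in V5 replicate 2.

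Among the receptors Notch2 had the most reads, 45.1% of all counts over the 10 genes. V5 libraries held 167, 187 and 439 of its reads, or 207, 164 and 134 CPM, against 181, 178 and 273 reads, or 140, 134 and 109 CPM, in wild type. V5 replicates 1 and 2 lay above the wild-type range, whereas V5 replicate 3 lay inside it. The log2 fold change was 0.43 (SE 0.24, with an edgeR adjusted p = 0.980). Without V5 replicate 1 it was 0.19, and without V5 replicate 3 it was 0.60 (adjusted p = 0.454), the lowest adjusted p for Notch2 in any fit that left out a library.

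Notch3, a receptor known from smooth muscle of arteries, had 15, 52 and 69 reads in V5 against 18, 23 and 47 reads in wild type. Its CPM were 18.6, 45.7 and 21.0 in V5 against 14.0, 17.3 and 18.8 in wild type. V5 replicate 2 stood apart from the other ChIP libraries, and V5 replicate 1 fell within the wild-type range. The log2 fold change of 0.78 (SE 0.55, with an edgeR adjusted p = 0.980), the largest of the tested members, was 0.28 without V5 replicate 2.

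Notch1, the receptor required for somite formation and vessel growth, had 45, 35 and 123 reads in V5 against 22, 65 and 107 reads in wild type, or 55.8, 30.7 and 37.4 CPM against 17.1, 49.0 and 42.7 CPM. The groups overlapped widely, and the log2 fold change of 0.21 (SE 0.46) became -0.12 without V5 replicate 1 and also without wild-type replicate 1. Notch4, an endothelial receptor, had 20, 19 and 66 reads in V5 against 19, 36 and 44 reads in wild type, or 24.8, 16.7 and 20.1 CPM against 14.7, 27.1 and 17.6 CPM. Its log2 fold change of 0.08 (SE 0.57) was -0.12 without V5 replicate 1. Neither passed (edgeR adjusted p = 0.992 for Notch1 and 0.999 for Notch4).

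The ligand Jag1, which is needed in the arches for jaw and middle ear development, had 16, 40 and 78 reads in V5 against 31, 33 and 61 reads in wild type. In CPM it stood at 19.8, 35.1 and 23.7 in V5 and at 24.1, 24.9 and 24.4 in wild type. The wild-type libraries were close together, with V5 values on both sides of them. The log2 fold change was 0.12 (SE 0.50, with an edgeR adjusted p = 0.997), and -0.12 without V5 replicate 2. Jag2, a ligand of epithelia that acts in palate and limb, had 3, 37 and 53 reads in V5 against 17, 19 and 25 reads in wild type, or 3.72, 32.5 and 16.1 CPM against 13.2, 14.3 and 9.98 CPM. Both the lowest and the highest Jag2 value were thus V5 libraries. The log2 fold change of 0.51 (SE 0.70, with an edgeR adjusted p = 0.988) turned to -0.22 without V5 replicate 2.

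Dll1, a Delta-like ligand of somites and neural progenitors, had 4, 9 and 18 reads in V5 against 13, 11 and 11 reads in wild type, and was the only tested member with a negative log2 fold change, -0.27 (SE 0.85, with an edgeR adjusted p = 0.997). Its CPM were 4.96, 7.91 and 5.48 in V5 against 10.1, 8.29 and 4.39 in wild type, which overlap. Without wild-type replicate 1 the Dll1 value was -0.017, and without wild-type replicate 3 it was -0.57. Dll4, the Delta-like ligand of arterial and tip endothelial cells, had 5, 9 and 19 reads in V5 against 7, 6 and 19 reads in wild type. At 6.63 ± 1.13 CPM in V5 and 5.85 ± 1.57 CPM in wild type (SD, n = 3 each) its log2 ratio was 0.17 (exact permutation p = 0.5), and 0.025 to 0.40 with a library left out.

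**Figure D2:**
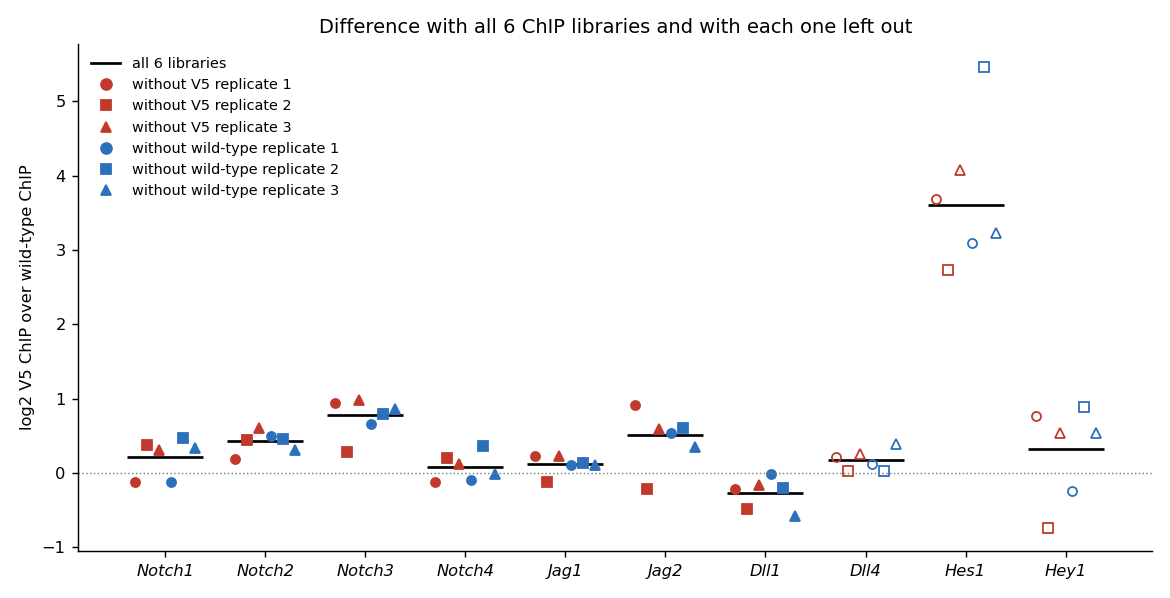
Log2 difference between V5 and wild-type ChIP (vertical axis) for each Notch gene with all 6 ChIP libraries (black line) and with each one left out (symbols). Filled symbols are edgeR log2 fold changes and open symbols, for Dll4, Hes1 and Hey1, log2 ratios of mean CPM. Notch1, Notch4, Jag1, Jag2 and Hey1 cross 0, while Hes1 stays between 2.73 and 5.46.

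A single library, V5 replicate 2, was the highest of the 6 ChIP libraries in 6 of the 10 genes, namely Notch3, Jag1, Jag2, Dll4, Hes1 and Hey1. It was the highest in 24.8% of all genes with at least 70 counts. V5 replicate 1 was the highest in Notch1 and Notch2, and the wild-type libraries in Notch4 and Dll1. Wild-type replicate 1 was the lowest in 5 of the 10, with 0 reads at Hes1 and Hey1. In the list of 40 other Notch pathway genes described below it was the lowest in 8, and V5 replicate 1 in 16. The coefficient of variation between replicates was larger in V5 than in wild type for 5 of the 10, against 71.1% of all genes with at least 70 counts. It was 30.3% in V5 against 1.67% in wild type at Jag1 and 82.7% against 18.0% at Jag2, while Hes1 had 86.5% against 149% and Notch1 31.4% against 46.6%.

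Levels of different genes can be compared only per length, and here per kb of the deposited length and per 1e6 counts. In V5 the order of the means was Hes1 at 8.07 ± 6.98, Hey1 at 1.37 ± 1.33, Notch2 at 1.23 ± 0.270, Notch1 at 0.900 ± 0.282, Notch4 at 0.846 ± 0.168, Jag2 at 0.835 ± 0.691, Jag1 at 0.748 ± 0.227, Dll1 at 0.722 ± 0.186, Dll4 at 0.671 ± 0.114 and Notch3 at 0.618 ± 0.326 (SD, n = 3). In wild type it ran from Hey1 at 1.08 ± 0.964, Notch2 at 0.934 ± 0.122 and Dll1 at 0.896 ± 0.344 down to Hes1 at 0.569 ± 0.848 and Notch3 at 0.363 ± 0.0536. In V5 the ranges of the 3 libraries overlapped between all neighbours in this order, Hes1 and Hey1 included, so the order is not resolved. Hes1 was thus first in V5 and ninth in wild type, on 70 and 6 counts in all. The input, with 1 library, had 2.23 at Hes1, from 0.368 at Jag1 to 1.19 at Notch4 among the other genes, and a median of 0.989 over the 10. The input median over all genes with reads was 0.813.

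The second comparison sets both ChIP groups against the input, which shows what the immunoprecipitation and its background recovered relative to the starting chromatin. In CPM, Notch2 and Jag1 were higher in all 6 ChIP libraries than in the deeper input, and Notch4 and Dll4 were lower in all 6. There is 1 input library, so these ratios have no replicate check on that side and no test, and the V5 and wild-type ratios share it. Notch2 had 134 to 207 CPM in V5 and 109 to 140 CPM in wild type, against 70.2 CPM in the input (exact binomial 95% interval 61.7 to 79.6), log2 ratios of 1.26 in V5 and 0.86 in wild type. Jag1 had log2 ratios of 1.01 in V5 and 0.91 in wild type to an input level of 12.9 CPM (interval 9.41 to 17.3). The level of every ChIP library thus stood above the input interval at both genes. At Jag1 the libraries' own intervals overlapped that of the input in V5 replicate 1 (from 11.3 CPM) and wild-type replicates 1 and 2 (from 16.3 and 17.1 CPM). At Notch2 no ChIP interval overlapped it. Over the 16736 genes with at least 70 counts, 11.6% had all 6 ChIP libraries above the input and 15.4% had all 6 below it.

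Notch4 had log2 ratios of -0.49 in V5 and -0.54 in wild type to 29.0 CPM in the input (interval 23.6 to 35.2). V5 replicate 1 and wild-type replicate 2 lay inside that interval. Dll4 stood at -0.62 in V5 and -0.79 in wild type, relative to 10.3 CPM in the input (interval 7.23 to 14.3). V5 replicate 2 at 7.91 CPM and wild-type replicate 3 at 7.59 CPM lay inside the Dll4 interval. Notch3 stood at -0.22 in V5 and -0.98 in wild type, and Jag2 at -0.42 and -0.90, in each case with V5 replicate 2 above the input and the other ChIP libraries below it. Dll1 stood at -0.65 and -0.35, and Notch1 at 0.52 and 0.34, in V5 and wild type. Hes1 was above the input in V5 replicates 1 and 2, with a log2 ratio of 1.81 over the group, and below it in V5 replicate 3 and in every wild-type library, with -1.80 over the group. Without V5 replicate 2 the V5 ratio was 0.94 at Hes1 and 0.74 at Jag1. Over all 10 genes the median log2 ratio to input was 0.15 in V5, which became -0.45 without V5 replicate 2, and -0.45 in wild type. Over the 9 with at least 70 counts, which leave out Hey1, it was -0.22 in V5 and -0.54 in wild type. Over the 16736 genes with at least 70 counts it was 0.022 in V5 and -0.010 in wild type. Genes longer than 100 kb, the class of Notch2, had median log2 ratios of 0.20 in V5 and 0.21 in wild type. The class of Hes1, 95 genes of up to 3 kb with at least 70 counts, had medians of 0.28 in V5 and -0.58 in wild type. That minimum can itself select short genes with many reads in some libraries, and its part was not tested. In the edgeR fit, whose filter left out Hes1, 32 genes were of up to 3 kb. Their median log2 fold change, V5 over wild type, was 0.016. In the next class, 3 to 10 kb, which holds Dll1 and Dll4, the median of 1050 tested genes was 0.18 and 59.0% were positive. The part of gene length in the ratios to input and in V5 over wild type was not tested.

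**Figure D3:**
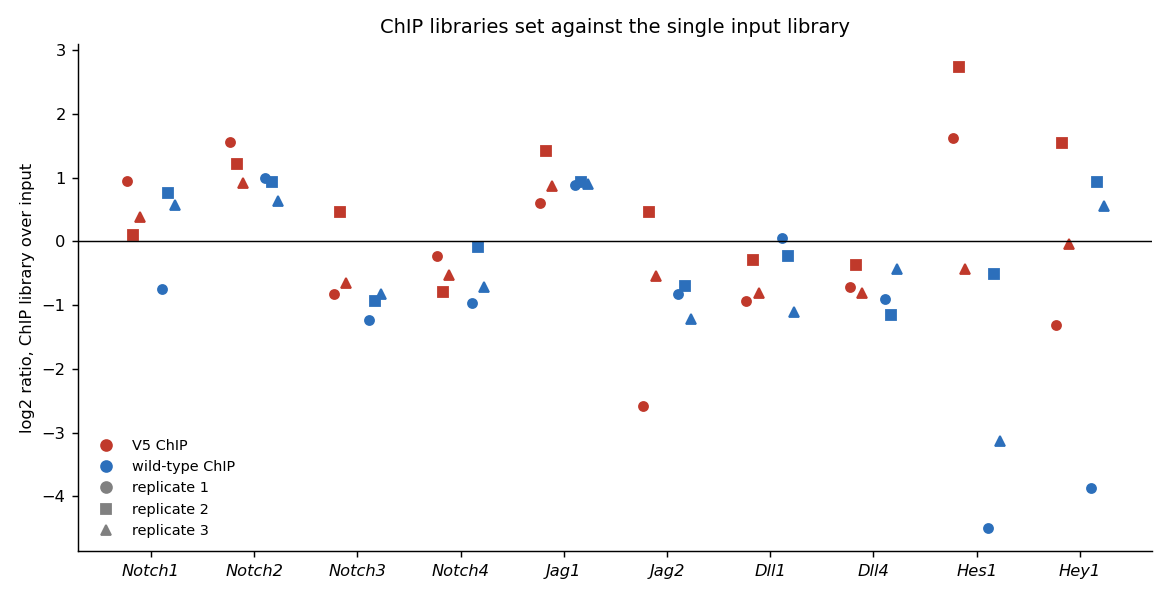
Log2 ratio of each ChIP library to the input library (vertical axis) for the 10 Notch genes, V5 in red and wild type in blue, with symbols for replicates. All 6 libraries lie above 0 at Notch2 and Jag1 and below 0 at Notch4 and Dll4. The lowest points at Hes1 and Hey1 are wild-type replicate 1 with 0 counts, whose place is set by the prior count of 0.5.

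A wider list of 40 other Notch pathway genes was read in the same fit, of which 29 had enough counts. The fit called 0 of the 29 higher and 0 lower in V5, as was 0% of all genes tested. At an unadjusted p under 0.05 there was 1 of the 29, against 4.12% of all tested genes. Of the 29, 15 (51.7%) had a positive log2 fold change and the median was 0.0071, against 52.0% and 0.02 over all tested genes. By role, positive values were found in 3 of 6 genes of the nuclear complex, 4 of 6 proteases, 2 of 3 glycosyltransferases, 4 of 10 genes of endocytosis and ubiquitin ligation, 1 of 3 further Hes, Hey and Nrarp genes and 1 of 1 ligand.

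Rbpj, the DNA-binding protein of the pathway, had 66.9, 71.2 and 69.98 CPM in V5 and 61.3, 100 and 68.7 CPM in wild type. The log2 fold change was -0.12 (SE 0.30). Its co-activator Maml1 stood at 0.03 (SE 0.43). Adam10, a protease that cuts the receptor, stood at 0.03 (SE 0.25). Mib1, the ubiquitin ligase that activates ligands, stood at -0.25 (SE 0.29). Numb, an endocytic inhibitor of Notch, had 35.95, 45.7 and 45.9 CPM in V5, all below the 47.3, 51.2 and 51.5 CPM in wild type, with a log2 fold change of -0.21 (SE 0.37). It was the 1 gene of the 29 in which every V5 library lay below every wild-type library, as in 5.27% of tested genes, and 0 of the 29 had every V5 library above, against 4.83%. The edgeR adjusted p was 0.984 for Mib1 and between 0.991 and 0.999 for the others of these genes.

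Of the further targets, Hes5, another HES repressor with a short gene, had 1, 46 and 14 reads in V5 against 1, 2 and 7 reads in wild type, or 1.24, 40.4 and 4.26 CPM against 0.776, 1.51 and 2.79 CPM. V5 replicate 2 alone was far above the rest. The log2 ratio of 3.00 (exact permutation p = 0.3) was 0.63 without that library. Hey2 stood at -0.08 (SE 0.79, with an edgeR adjusted p = 0.999) and Heyl at -0.45 (SE 0.70, with an edgeR adjusted p = 0.988), which ran from -0.90 without V5 replicate 3 to -0.093 without wild-type replicate 3. The glycosyltransferase Lfng, which modifies the receptors, had a log2 ratio of 0.79 (exact permutation p = 0.2), and the divergent ligand Dll3 one of -0.31 (exact permutation p = 0.8), which was 0.79 without wild-type replicate 1.

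The gene with an unadjusted p under 0.05, named after its values were seen, was Ncstn, which encodes the gamma-secretase subunit nicastrin. It had 54, 9 and 35 reads in V5 against 4, 4 and 34 reads in wild type, or 66.9, 7.91 and 10.6 CPM against 3.10, 3.01 and 13.6 CPM. The groups overlapped, and V5 replicate 1 stood alone above the rest. Its fold change on the log2 scale was 2.07 (SE 0.83, with an edgeR adjusted p = 0.980), 0.42 without V5 replicate 1 and 0.90 with limma-voom. Aph1a, another gamma-secretase subunit gene and likewise chosen after its values were seen, had too few counts for the fit. It had 4, 21 and 22 reads in V5 against 2, 0 and 11 reads in wild type. Its groups did not overlap in CPM, with V5 the higher (exact permutation p = 0.1, the lowest value possible here). Such a separation toward V5 was found in 4.82% of genes with at least 70 counts. Aph1a met that minimum only through its 47 counts in V5, against 13 in wild type and 10 in the input. In the list of 40 the groups were separate in 2 genes, Aph1a and, in the other direction, Numb.

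**Figure D4:**
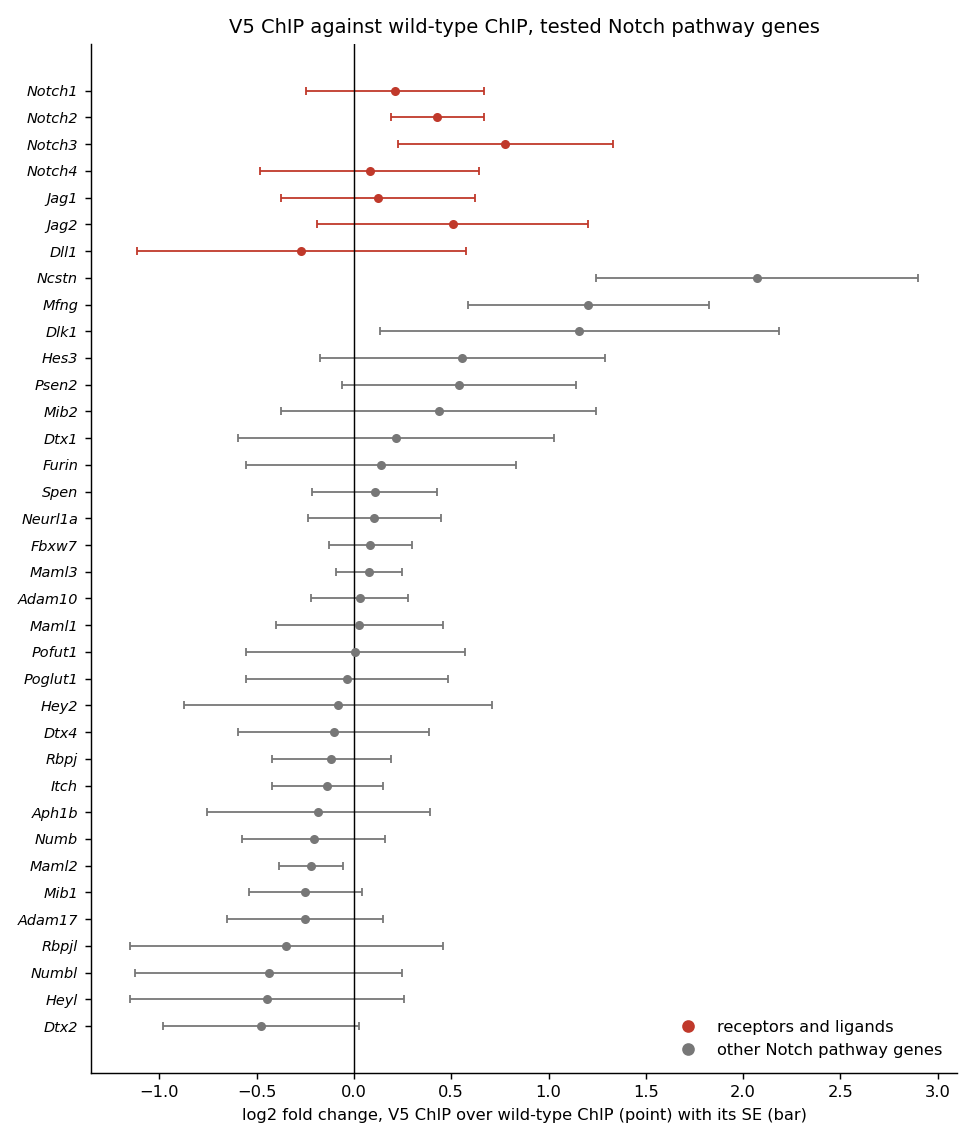
Log2 fold change of V5 over wild-type ChIP (horizontal axis, points) with its SE (bars) for the 7 tested Notch receptors and ligands (red) and the 29 tested genes of the wider pathway list (grey). None passed the adjusted threshold, and Ncstn at 2.07 is the farthest from 0.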

How the data were processed

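The authors deposited unnormalized read counts for 7 libraries, 1 value per Entrez gene beside a gene length, per the file headers. The tools bcl2fastq, featureCounts and MACS and the build mm10 are named in the submitters' processing notes. The sources used here do not name the aligner, the treatment of duplicate reads or the counting settings. Of 27179 genes, 25275 identifiers matched a symbol in RefSeq GRCm38.p6, which also gave coordinates and promoter sequences. Libraries were grouped by the genotype and library type in their titles. Every pair of libraries differed by more than sampling noise, with a chi-square per degree of freedom of at least 4.03 over genes, so each counted as 1 replicate.

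The V5 against wild-type fit used R 4.3.3 and edgeR 4.0.16 with TMM factors, a filterByExpr minimum of 10 counts, a robust glmQLFit and a two-sided glmQLFTest with Benjamini-Hochberg adjustment. DESeq2 1.42.0, limma-voom (limma 3.58.1), other scalings, no filter, a replicate block, the input as another group, and leaving out each library were the alternatives. Standard errors were derived from the F statistic. The fit was also run on simulated data drawn with the same spread for every gene, unlike these libraries, and no result here rests on that run. For genes below the filter, CPM values entered an exact two-sided permutation test. Ratios of mean CPM used a prior count of 0.5 at the mean library size, and intervals are exact binomial, for counting error only. The members, the pathway list and the marker lists were chosen with earlier results of these data known. The text names all 10 members and 10 fixed genes of the pathway list; others are marked as chosen afterwards. Some genes of that list are not reported here.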

Additional observations from a re-analysis of the deposited data

How the results depend on the processing

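None of the Notch genes was called in an alternative fit of V5 against wild type, each of which held 7 to 10 of the 10. Hes1 had too few counts for some of these and an adjusted p of 0.158 or more in the others. Over all genes 0 were called in the fit described, 9 without the filter on low counts, 1 with limma-voom, 1 with the replicate block and 0 to 2 with a library left out. The replicate numbers showed no clear pairing of the libraries. Same-numbered deviations correlated at 0.0059 to 0.060, against -0.047 to 0.025 for other pairs, and not every library correlated best with its own number. With 3 libraries per group this check cannot exclude a shared preparation. The block changed no call among the 7 genes it was fitted to, which leave out Dll4, Hes1 and Hey1. The median log2 fold change of the members ranged from 0.13 to 0.47 with a library left out, over the 7 to 9 members that each of these fits held. Part of that range comes from the change in the genes held. The median log2 ratio of V5 to input, over all 10 members, ranged from -0.45 to 0.27. Directions turned in the following genes, none of them called, and the cause was not tested. With a library left out the log2 difference ranged from -0.12 to 0.47 for Notch1, -0.12 to 0.36 for Notch4, -0.12 to 0.23 for Jag1, -0.22 to 0.92 for Jag2, -0.74 to 0.89 for Hey1, -0.67 to 0.79 for Dll3, -1.17 to 0.32 for Hey2, -0.26 to 0.11 for Rbpj, -0.28 to 0.26 for Maml1, -0.068 to 0.14 for Adam10 and -0.44 to 0.063 for Mib1. Maml1 was at -0.017 with limma-voom. The alternatives for genes below the filter were chosen after seeing the data. Low counts over Hes1, Hey1, Dll1 and Dll4 limit what can be seen there.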
